A study of Homo sapiens with 6 samples.

Results

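The 9 genes CDKN1A, TRIAP1, SESN1, SESN2, GADD45A, BBC3, TNFRSF10B, ZMAT3 and XPC are known transcriptional targets of p53, and they were taken by name from a deposited table of 7983 genes. All 9 were in the table, and all 9 had a mean of at least 10 normalized reads over the libraries, the minimum for testing, which 7516 genes reached. RNA sequencing had been performed on Kasumi-1, a human acute myeloid leukaemia cell line with the t(8;21) translocation. Cells given a CRISPR/Cas9 guide against SETD8 (3 libraries, genotype SETD8 knockout, guide sgSETD8) were compared with cells given a non-targeting guide (3 libraries, genotype WT, guide sgNT, called control here). SETD8, whose current symbol is KMT5A, encodes the enzyme that adds a single methyl group to lysine 20 of histone H4. Both groups shared the same cell line and culture medium, and the labels state neither the guide sequence nor the time after guide delivery. They also do not state whether numbered libraries were separate cultures, clones or guides, so the p-values reflect only how far these libraries differ among themselves, a spread that may be technical. In bulk RNA, a change in the share of cells that express a gene and a change in RNA per cell cannot be told apart.

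The p53 protein is a transcription factor that is stabilized by DNA damage and other stresses and then binds response elements near its target genes. Its targets stop the cell cycle, repair DNA, restrain growth signalling or start cell death, and several of them also answer to other factors, such as ATF4 and CHOP of the integrated stress response. KMT5A is known to methylate a lysine in the C-terminal tail of p53 and thereby to dampen activation of CDKN1A and BBC3 in other cell lines.

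The promoters of 4 of the genes are shown because they mark the contrasts described below: CDKN1A had the largest rise and BBC3 the largest fall of the 9, and SESN1 and SESN2 are related genes that moved in opposite directions. Each sequence is a RefSeq window (GRCh38.p14) of 300 bases, read 5′ to 3′, that ends shortly after an annotated transcription start. The windows are chr6:36678464-36678763, plus strand, for CDKN1A, chr19:47232618-47232917, minus strand, for BBC3, chr6:109094797-109095096, minus strand, for SESN1, and chr1:28259268-28259567, plus strand, for SESN2. Capitals mark GC boxes (GGGCGG on either strand) and the AP-1 site (TGANTCA on either strand), and adjoining capitals in CDKN1A are overlapping GC boxes.
CDKN1A: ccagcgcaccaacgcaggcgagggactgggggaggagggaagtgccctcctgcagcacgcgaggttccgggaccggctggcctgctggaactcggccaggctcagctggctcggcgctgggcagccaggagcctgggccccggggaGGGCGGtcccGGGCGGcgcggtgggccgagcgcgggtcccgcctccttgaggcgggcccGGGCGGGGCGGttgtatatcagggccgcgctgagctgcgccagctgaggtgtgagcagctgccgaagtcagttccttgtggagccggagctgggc
BBC3: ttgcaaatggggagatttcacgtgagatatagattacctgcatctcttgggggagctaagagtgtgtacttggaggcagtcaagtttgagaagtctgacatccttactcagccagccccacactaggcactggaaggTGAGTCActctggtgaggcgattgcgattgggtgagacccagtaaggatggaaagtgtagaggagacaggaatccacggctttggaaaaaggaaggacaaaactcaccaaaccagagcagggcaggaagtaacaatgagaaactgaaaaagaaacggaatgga
SESN1: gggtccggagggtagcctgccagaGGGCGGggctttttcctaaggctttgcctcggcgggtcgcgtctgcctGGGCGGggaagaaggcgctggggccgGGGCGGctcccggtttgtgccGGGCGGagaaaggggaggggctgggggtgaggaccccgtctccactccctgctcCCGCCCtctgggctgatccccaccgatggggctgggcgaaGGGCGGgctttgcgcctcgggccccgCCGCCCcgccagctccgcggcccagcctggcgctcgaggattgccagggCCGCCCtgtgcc
SESN2: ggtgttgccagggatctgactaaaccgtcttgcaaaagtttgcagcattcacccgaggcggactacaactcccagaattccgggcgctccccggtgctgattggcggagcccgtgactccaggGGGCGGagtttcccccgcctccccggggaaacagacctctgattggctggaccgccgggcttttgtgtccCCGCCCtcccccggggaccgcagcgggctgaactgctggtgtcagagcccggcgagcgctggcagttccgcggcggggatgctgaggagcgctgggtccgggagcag
The CDKN1A window held 4 GC boxes, the SESN1 window 8 and the SESN2 window 2, while the BBC3 window held 0. A GC box was present in 45.0% of all 35116 RefSeq windows of this length. The CCAAT box (either strand), which is not marked, had 2 matches in SESN2, 1 in BBC3 and 0 in CDKN1A and SESN1. It was present in 34.6% of all windows. BBC3 held 1 AP-1 site, a motif found in 7.71% of windows. Its GC content was 48.0%, against 74.3% for CDKN1A, 75.0% for SESN1 and 67.0% for SESN2. The p53 consensus decamer, the repeat unit of p53 response elements, had 0 matches in the 7 genes with a window, and 6.63% of all windows had one. The composite site of CHOP and ATF4 (TGATGNAA, either strand) also had 0 matches in these 7, and 3.62% of all windows had one. No match says only that these letters are not in this window, and the deposited counts do not show which start was used. The SESN1 window is the nearest of 3 RefSeq starts to the deposited gene start, and the CDKN1A start lies 2254 bases inside the deposited gene. For BBC3 only 1 start was searched, 99 bases from the deposited gene start. Its motifs and GC content therefore describe that window and no other BBC3 start. No window was used for GADD45A and TNFRSF10B.

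The targeted gene and MDM2 were read first. KMT5A had 880, 933 and 939 normalized reads in the knockout libraries, against 1191, 1212 and 1255 in the control libraries. Its level was 1.33-fold lower in knockout cells (limma-trend adjusted p = 5.65e-05), and most of its transcript signal persisted. MDM2, the p53 target whose product degrades p53, had 1375, 1217 and 1275 in knockout, against 1112, 1129 and 1164 in control. Its log2 fold change of 0.18 passed narrowly (adjusted p = 0.047), and the call ended with either count model (0.061 with edgeR at log2 0.17, 0.053 with DESeq2 at log2 0.18) and it ended or turned in 12 of 19 alternatives in all. Leaving out knockout 1, knockout 3 or any of the 3 control libraries was enough to end it, at log2 fold changes from 0.13 to 0.20. The authors' deposited table gave MDM2 an adjusted p of 0.072. Reads in listed genes ran from 10966349 to 12557974 per library, and each of the 9 genes had at least 126 reads in every library.

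All 9 genes differed between the groups, in both directions. CDKN1A, TRIAP1 and SESN1 rose, and SESN2, GADD45A, BBC3, TNFRSF10B, ZMAT3 and XPC fell (limma-trend on log2 values, Benjamini-Hochberg adjusted p below 0.05). The table lists only genes below 0.05 in the unadjusted p of the authors' own comparison of these libraries, and 94.1% of all tested genes were called here, 47.3% higher and 46.7% lower. That all 9 were called therefore says little, and the same holds for the absence of overlap between groups, seen in 9 of 9 genes and in 95.4% of tested genes. The median log2 fold change was -0.36 over the 9 genes and 0.14 over all tested genes. The shares of 47.3% higher and 46.7% lower, with this median, stand beside each list count below, except counts under alternative settings. In size the changes were uneven: a log2 fold change of at least 1 was reached in the higher direction by 1 of the 9 genes, against 8.34% of all tested genes, and in the lower direction by 2 of the 9, against 10.7%.

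**Figure D1:**
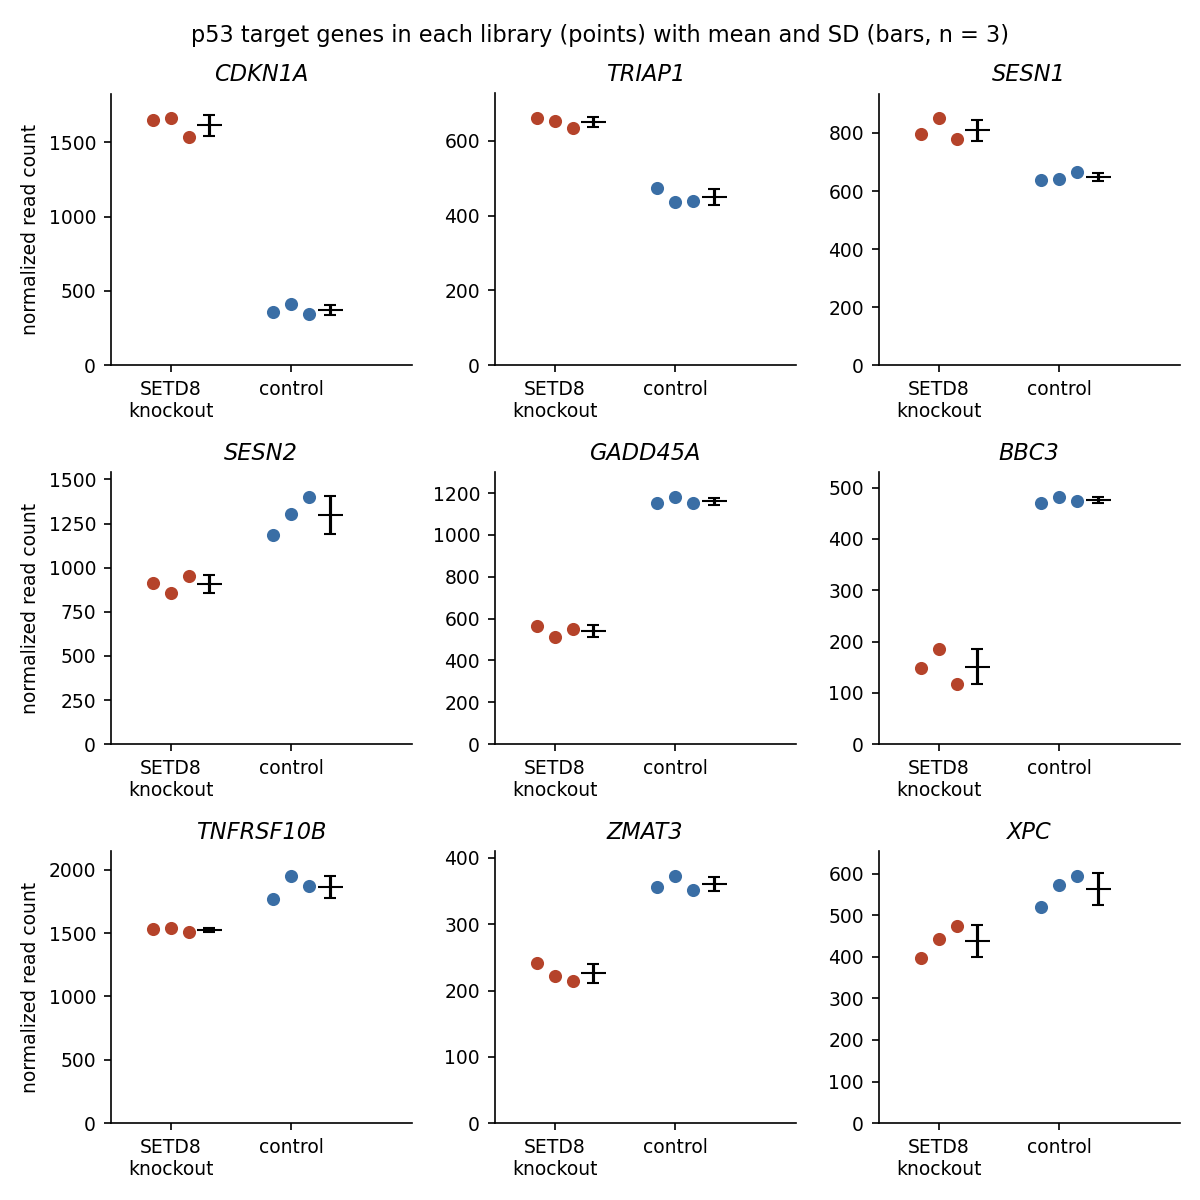
Normalized read count (y axis, from 0, a separate scale per gene) of the 9 p53 target genes in the 3 SETD8 knockout libraries and the 3 control libraries. Points are libraries and bars are mean and SD. The groups do not overlap in any panel, and relative to each panel's own scale the gap is widest for CDKN1A and BBC3.

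Cell cycle arrest is represented by CDKN1A and GADD45A, which moved apart. CDKN1A (ENSG00000124762, chromosome 6, 36676460 to 36687339, plus strand, hg38) encodes p21, an inhibitor of cyclin-dependent kinases and the best known effector of p53-driven arrest. It had 1650, 1662 and 1534 normalized reads in the knockout libraries, against 356, 409 and 347 in the control libraries. Every knockout library stood above every control library by a wide margin, and the spread within each group was small beside the gap. The mean was 1615 ± 70.6 in knockout and 371 ± 33.8 in control (SD, n = 3 each), a 4.36-fold rise with a log2 fold change of 2.12 (SE 0.08, limma-trend adjusted p = 7.64e-15). By size it ranked 151 among the 3786 tested genes with a change above 0. GADD45A (ENSG00000116717, chromosome 1, 67685061 to 67688338, plus strand) encodes a small stress protein that binds PCNA, p21 and the stress kinase MAP3K4. It had 567, 510 and 548 in the knockout libraries, against 1151, 1180 and 1152 in the control libraries. The control values were nearly equal and all lay above the knockout values. The mean was 542 ± 28.8 in knockout and 1161 ± 16.6 in control, a 2.14-fold fall (log2 -1.10, SE 0.08, adjusted p = 1.46e-10). Its relative GADD45B, which also encodes a stress sensor, did the opposite, at 385 ± 39.7 in knockout and 181 ± 24.5 in control (2.12-fold higher, adjusted p = 6.65e-07). Among 11 tested relatives and stress kinase partners of GADD45A, 7 rose and 3 fell (median log2 fold change 0.31). GADD45GIP1, a mitochondrial protein that binds GADD45 proteins, rose 1.60-fold, TDG, a DNA glycosylase, rose 1.37-fold, and MAPK8, the stress kinase JNK1, fell 1.38-fold.

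Genes of p21's surroundings did not follow a single direction. Among 16 tested cyclins, kinases and kinase inhibitors that work with or beside p21, 8 rose and 6 fell, with a median log2 fold change of 0.20. CCNE2 and CCNE1, the E-type cyclins whose kinase p21 inhibits, rose 1.97-fold and 1.62-fold. CDKN2C, the kinase inhibitor p18, rose to 3214 ± 225 in knockout, against 1715 ± 63.7 in control. CDKN2A, which encodes both the kinase inhibitor p16 and ARF, the inhibitor of MDM2, fell to 2221 ± 8.63 in knockout, against 3542 ± 133 in control. Genes that the DREAM complex represses when p21 is active had 25 tested members. Of these 17 rose and 5 fell (median 0.23), against 47.3% and 46.7% of all tested genes. The number that rose was 11 with upper-quartile scaling and 11 without control 1. Over all tested genes 3072 and 3188 rose under these settings, in place of 3557. CCNB1, cyclin B1, rose 2.07-fold, the kinesin KIF20A 2.02-fold and CDC20, an activator of the anaphase-promoting complex, 1.81-fold, while BRCA1 fell 1.55-fold. BRCA1 lost its call when the median change of its chromosomal neighbours was removed (log2 -0.10, adjusted p = 0.35). Of 7 other tested p53 targets linked to arrest, 3 rose and 4 fell. They include phosphatases of MAP kinases: DUSP4 rose 2.08-fold, while DUSP1 and DUSP5 fell 1.95-fold and 1.72-fold. DUSP5 changed sign with the change of its neighbours removed (log2 0.11).

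Cell death is represented by BBC3 and TNFRSF10B, both lower, and by TRIAP1 and ZMAT3. BBC3 (ENSG00000105327, chromosome 19, 47220822 to 47232766, minus strand) encodes PUMA, a BH3-only protein that neutralizes the survival proteins of the BCL2 family. It had 148, 186 and 118 normalized reads in the knockout libraries, against 470, 481 and 474 in the control libraries. Control libraries agreed closely, whereas the knockout libraries varied more but stayed well below them. The mean was 150.4 ± 34.1 in knockout and 475 ± 5.71 in control, a 3.20-fold fall (log2 -1.68, SE 0.14, adjusted p = 2.93e-09). It ranked 301 by size among 3730 tested genes with a change below 0. TNFRSF10B (ENSG00000120889, chromosome 8, 23020133 to 23069179, minus strand) encodes the death receptor DR5 for the ligand TRAIL. It had 1532, 1539 and 1505 in the knockout libraries, against 1773, 1949 and 1870 in the control libraries. All knockout values were lower, by a modest margin, at 1526 ± 17.8 in knockout and 1864 ± 88.3 in control (1.22-fold lower, log2 -0.29, SE 0.06, adjusted p = 0.000763).

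TRIAP1 (ENSG00000170855, chromosome 12, 120443961 to 120446412, minus strand) encodes a small mitochondrial protein that works with PRELI-domain proteins in lipid transfer and is known to restrain apoptosis. It had 661, 654 and 635 in the knockout libraries, against 475, 436 and 439 in the control libraries. The knockout libraries formed a tight group above the controls. The mean was 650.1 ± 13.4 in knockout and 449.9 ± 21.9 in control, a 1.44-fold rise (log2 0.53, SE 0.09, adjusted p = 4.67e-05). Its partner PRELID1 rose 1.82-fold. The list of TRIAP1's partners, cardiolipin synthesis and related small mitochondrial proteins had 13 tested genes. Of these 9 rose and 4 fell (median 0.33), against 47.3% and 46.7% of all tested genes. With the change of chromosomal neighbours removed the counts of this list were 3 and 2. Over all tested genes that setting gave 2246 higher and 2448 lower, in place of 3557 and 3513. ZMAT3 (ENSG00000172667, chromosome 3, 179017223 to 179072279, minus strand) encodes a zinc finger protein that binds RNA and acts on splicing and mRNA stability. It had 241, 222 and 214 in the knockout libraries, against 357, 372 and 352 in the control libraries. Its values were the lowest per length of the 9 genes in both groups, and the groups were clearly apart. The mean was 226 ± 13.8 in knockout and 360.3 ± 10.8 in control (1.60-fold lower, log2 -0.67, SE 0.12, adjusted p = 6.92e-05).

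Other p53 targets of apoptosis mostly moved against BBC3 and TNFRSF10B. Of 25 such genes written in the list, 15 were tested. Of these 12 rose and 2 fell, against 47.3% and 46.7% of all tested genes. Their median log2 fold change was 0.76, against 0.14 over all tested genes. With the change of chromosomal neighbours removed, 10 were higher and 2 lower, against 2246 higher and 2448 lower among all tested genes. TP53I11 rose to 323 ± 32.3 in knockout, against 122 ± 25.1 in control, and EI24, a p53-induced gene of the endoplasmic reticulum, to 2062 ± 106, against 1059 ± 112. TNFRSF10A, the sister receptor DR4 for TRAIL, rose to 119 ± 12.8 in knockout, against 45.5 ± 5.94 in control, and the decoy receptor gene TNFRSF10D rose 1.70-fold. TRAF4, a signalling adaptor, rose 1.75-fold. The members that fell were PMAIP1 and BLCAP; PMAIP1, which encodes the BH3-only protein NOXA, had 1153 ± 147 in knockout and 1891 ± 139 in control. In the wider TRAIL pathway 7 of 12 tested genes rose and 5 fell, and 2 fell without knockout 2 or without control 3. Over all tested genes 3107 and 3057 fell under these settings, in place of 3513. Among 10 tested BCL2 family genes other than BBC3, 4 rose and 6 fell, against 47.3% and 46.7% of all tested genes. The number of these that rose was 2 without control 1, where 3188 of all tested genes rose, in place of 3557. BCL2, a survival protein that PUMA binds, fell to 3584 ± 184 in knockout, against 6647 ± 222 in control, BCL2A1 fell 2.67-fold, and BID, which links death receptors to mitochondria, rose 1.75-fold.

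The sestrins are stress proteins that restrain mTORC1 through the GATOR complexes and support antioxidant defence, and their genes split. SESN1 (ENSG00000080546, chromosome 6, 108986437 to 109094819, minus strand) had 797, 851 and 780 normalized reads in the knockout libraries, against 637, 643 and 664 in the control libraries. All knockout values were higher, at 809 ± 37.1 in knockout and 648 ± 14.3 in control (1.25-fold, log2 0.32, SE 0.08, adjusted p = 0.00270). SESN2 (ENSG00000130766, chromosome 1, 28259527 to 28282491, plus strand), which also answers to ATF4, had 914, 856 and 953 in the knockout libraries, against 1185, 1304 and 1399 in the control libraries. Here every knockout value was lower, at 908 ± 49.1 in knockout and 1296 ± 107 in control (1.43-fold lower, log2 -0.51, SE 0.08, adjusted p = 1.05e-05). Within each library, the log2 value of SESN1 minus that of SESN2 was -0.20, -0.01 and -0.29 in knockout, against -0.90, -1.02 and -1.07 in control. The difference between groups was 0.83, higher in 3 of 3 knockout libraries, with an exact permutation p of 0.1 (two-sided), the smallest that 3 against 3 libraries allow. Both genes separated the groups on their own, in opposite directions, so this outcome was fixed in advance and adds no support. SESN3, the remaining sestrin, fell to 980.3 ± 51.8 in knockout, against 1787 ± 47.1 in control (1.82-fold lower, adjusted p = 6.55e-10).

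Partners of the sestrins in mTORC1 control went both ways. Of 17 tested genes 9 were higher and 8 lower (median 0.22), against 47.3% and 46.7% of all tested genes. DDIT4, a stress-induced inhibitor of mTORC1, fell 2.63-fold and TSC1, a subunit of the complex that inhibits RHEB, fell 1.86-fold. RHEB itself, the GTPase that activates mTORC1, rose 1.60-fold. With the change of chromosomal neighbours removed, 5 of these 17 genes were higher and 5 lower, against 2246 higher and 2448 lower among all tested genes. Other p53 targets of metabolism, redox control and autophagy had 8 higher and 10 lower genes of 19 (median -0.34). FUCA1, a lysosomal fucosidase, rose to 251 ± 26.1 in knockout, against 58.5 ± 13.1 in control, and KITLG, the ligand of the receptor KIT, to 164 ± 25.0, against 41.5 ± 5.64. CMBL, a hydrolase, rose 2.06-fold.

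DNA repair is represented by XPC, the damage sensor that starts global nucleotide excision repair. XPC (ENSG00000154767, chromosome 3, 14145147 to 14178783, minus strand) had 398, 442 and 474 in the knockout libraries, against 519, 573 and 594 in the control libraries. The groups did not overlap, but the gap between the highest knockout and the lowest control library was smaller than the distance from the lowest to the highest library within either group. The mean was 438.1 ± 38.3 in knockout and 562 ± 38.4 in control (1.28-fold lower, log2 -0.36, SE 0.10, adjusted p = 0.00593). RAD23B, which stabilizes XPC, fell 1.65-fold, whereas CETN2, which completes the XPC complex, rose 1.52-fold. Neither kept its call with the change of neighbouring genes removed (log2 -0.08 for RAD23B and 0.14 for CETN2). Across 17 tested genes of nucleotide excision repair other than XPC, 7 rose and 9 fell (median -0.23). Over all tested genes 47.3% were higher and 46.7% lower. ERCC4, a subunit of the incision nuclease, fell to 123 ± 19.1 in knockout, against 274 ± 9.85 in control, and ERCC2, a TFIIH helicase, rose 1.66-fold. Of 5 other tested p53 targets of repair 4 fell, among them POLK, a translesion polymerase, 1.35-fold lower, and 1 rose. FANCC, a Fanconi anaemia gene, fell 1.48-fold and changed sign with the change of its neighbours removed (log2 0.03). The gene that rose, RRM2B, a p53-induced ribonucleotide reductase subunit, had an adjusted p of 0.041, which was above 0.05 with TMM scaling (0.053) and with the change of neighbours removed, where its direction turned (log2 -0.23, adjusted p = 0.19). RRM2B also lost its call without knockout 1, knockout 3, control 2 or control 3, at log2 fold changes from 0.20 to 0.31.

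The order of the 9 genes by length-scaled level changed between the groups. These are normalized reads per kilobase of the deposited gene length, as levels. CDKN1A was first in knockout at 529.7 ± 23.1 and ranked 7 in control at 122 ± 11.1. GADD45A ranked 5 in knockout at 262 ± 13.9 and was first in control at 561 ± 8.03. TRIAP1 followed CDKN1A in knockout at 451 ± 9.31, and stood at 312 ± 15.2 in control. In knockout cells SESN2, at 263 ± 14.2, and GADD45A did not differ beyond their spread. Among control cells the values of SESN2, at 375 ± 31.0, and TNFRSF10B, at 361 ± 17.1, overlapped. The control range of CDKN1A, 114 to 134, overlapped that of SESN1, 124 to 129.7, and that of XPC, 108 to 124. BBC3, at 47.3 ± 10.7 in knockout and 149 ± 1.80 in control, and ZMAT3, at 23.4 ± 1.43 and 37.3 ± 1.12, closed the knockout order.

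**Figure D2:**
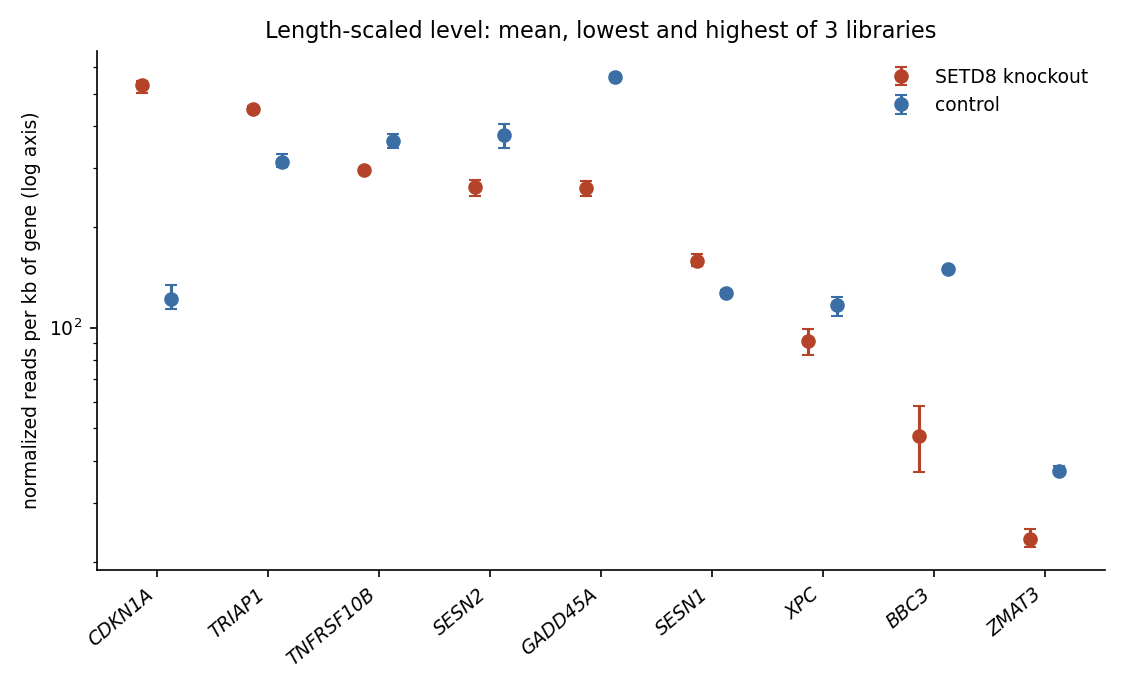
Normalized reads per kilobase of gene (log axis) for the 9 genes, ordered by their knockout mean, with SETD8 knockout left of control for each gene. Points are means of 3 libraries and bars run between the lowest and the highest library; CDKN1A leads in knockout cells and GADD45A in control cells.

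Chromosomal neighbours differed in how far they moved with each gene, as the next values show. Since genes close together can move together, each gene was set beside the tested genes that start within 5 Mb of it. ZMAT3 lay among genes that were mostly lower: 2 of 18 neighbours were above 0 and their median log2 fold change was -0.59, against -0.67 for ZMAT3. SESN1 lay among 22 neighbours with a median of 0.29, against 0.32 for SESN1. With the neighbours' median removed from the knockout libraries, SESN1 was at log2 0.03 and ZMAT3 at -0.08, and both calls ended (adjusted p = 1 each). The other 7 genes kept their calls. CDKN1A was at 1.90 and TRIAP1 at 0.31 under the same removal, while BBC3 was at -1.95, GADD45A at -1.43, SESN2 at -0.71, TNFRSF10B at -0.65 and XPC at -0.55. These last 5 genes fell although the median of their neighbours was above 0, between 0.19 and 0.36.

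**Figure D3:**
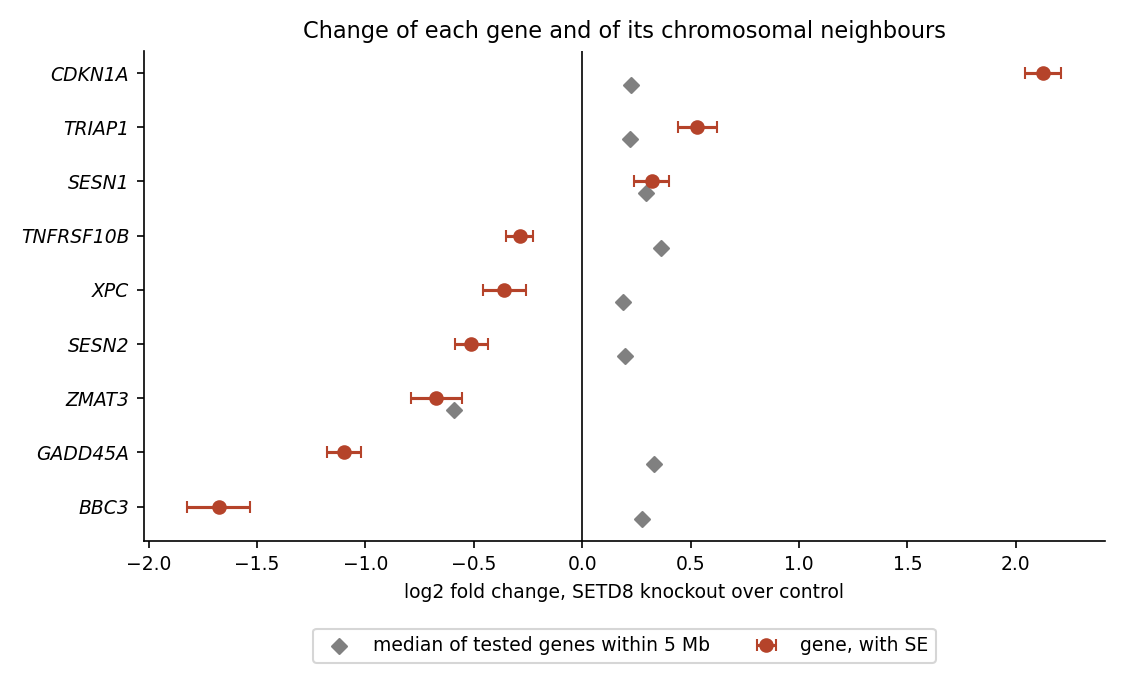
Log2 fold change, SETD8 knockout over control, of each of the 9 genes (circles, with SE) and the median of the tested genes that start within 5 Mb (diamonds). The diamond lies close to the circle for SESN1 and ZMAT3 and on the other side of 0 for the other 5 genes that fell.

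At their starts, 3 of the genes face a listed gene on the opposite strand. TRIAP1 starts 26 bases from GATC, a subunit of the mitochondrial glutaminyl-tRNA amidotransferase, which had 514, 428 and 543 in knockout, against 381, 382 and 450 in control. GATC was higher on average but the groups overlapped (log2 0.29, adjusted p = 0.045), and its call ended with TMM scaling (log2 0.28, adjusted p = 0.0581). It also ended without any of knockout 1, knockout 3, control 1 and control 2, at log2 fold changes from 0.22 to 0.26. CEP57L1, a centrosomal gene that starts 291 bases from SESN1, fell to 481 ± 52.4 in knockout, against 601 ± 17.4 in control (log2 -0.33, adjusted p = 0.010), opposite to SESN1. Without knockout 2 the call of CEP57L1 ended (log2 -0.24, adjusted p = 0.092). LSM3, an RNA-processing gene that starts 425 bases from XPC and overlaps its exons on the opposite strand, averaged 1189 ± 194 in knockout and 1006 ± 93.0 in control and did not pass the test (log2 0.23, adjusted p = 0.062). It did without knockout 3 (log2 0.35) and without control 1 (0.30), with the replicate block (adjusted p = 0.0176) and with adjustment over the tested genes only (0.0236). No source used here states the strand setting of the authors' gene counter, so reads of overlapping genes cannot be told apart. In the annotation, exons of CDKN1A, SESN1, TNFRSF10B and XPC overlap a gene on the opposite strand, and BBC3 overlaps small microRNA genes.

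SESN2, GADD45A, BBC3 and TNFRSF10B, which all fell, are also known targets of ATF4 or CHOP. Of 27 other genes written in the list of that programme, 18 were tested. Of these 15 fell and 1 rose, against 46.7% and 47.3% of all tested genes. Their median log2 fold change was -0.67, against 0.14 over all tested genes. PPP1R15A, the gene of the eIF2α phosphatase subunit GADD34, fell to 632 ± 77.2 in knockout, against 2495 ± 35.9 in control. DDIT3, which encodes CHOP itself, fell to 323 ± 52.9 in knockout, against 784 ± 19.7 in control, and CTH, which makes cysteine from cystathionine, fell 2.57-fold. The part of these genes in the fall of SESN2, GADD45A, BBC3 and TNFRSF10B was not tested. Among genes of p53 regulation, from modifying enzymes to feedback inhibitors, 6 of 22 tested genes rose and 15 fell (median -0.34). Over all tested genes 47.3% were higher and 46.7% lower. The genes of p53 regulation that fell include KMT5A, the targeted gene (log2 -0.41). CREBBP, an acetyltransferase that acts on p53 and histones, fell to 609 ± 85.2 in knockout, against 1324 ± 73.7 in control. PPP1R13L, which encodes the p53 inhibitor iASPP, fell 1.87-fold, and ATF3, a stress factor that binds p53, fell 1.65-fold.

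**Figure D4:**
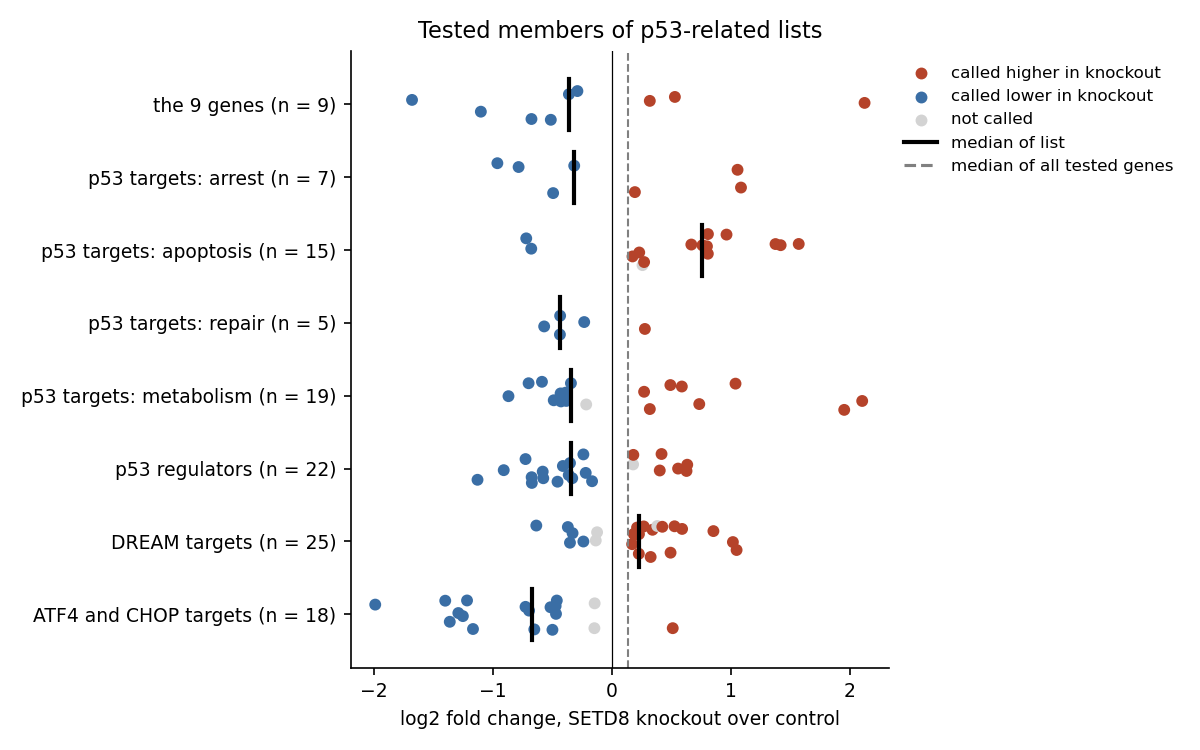
Log2 fold change, SETD8 knockout over control, of the tested members of 8 p53-related gene lists. Each point is a gene, coloured by its call, black bars are list medians and the dashed line is the median of all tested genes (0.14); the apoptosis targets lie mostly to the right and the ATF4 and CHOP targets mostly to the left.

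For each gene the nearest profile over the 6 libraries was sought among protein-coding tested genes only. Euclidean distance of log2 values from the control mean was used, which by construction picks genes with similar fold changes. The nearest to BBC3 was DUSP8, a phosphatase of stress kinases (distance 0.16, log2 fold change -1.69). For GADD45A it was CD300A, an inhibitory receptor of leukocytes (0.06, -1.07). For SESN1 it was HSP90AB1, a chaperone (0.04, 0.31).

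Cell identity was checked on marker lists. Of 17 markers of t(8;21) myeloid blasts 15 were tested, and 10 rose and 3 fell. MPO, the granule enzyme myeloperoxidase, was 7.94-fold lower, while the granule proteins PRTN3 and AZU1 were 29.8-fold and 11.2-fold higher and ANPEP, the surface antigen CD13, was 2.53-fold higher. KIT had a log2 fold change of -0.48, and CD34 (0.13) and RUNX1T1 (0.15) did not pass the test. Of 23 markers of lymphoid, erythroid, fibroblast and epithelial cells 6 were tested and all 6 rose, with summed normalized reads of 5213 to 5525 in knockout, against 3317 to 3610 in control. EPCAM, an epithelial adhesion molecule, had a normalized count of 1936 ± 96.9 in knockout and 1349 ± 78.2 in control. CD79B, a subunit of the B cell receptor, rose to 524 ± 23.5 in knockout, against 73.0 ± 23.6 in control. The part of these markers in the changes of the 9 genes was not tested.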

How the data were processed

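RNA from 3 SETD8 knockout and 3 control samples of Kasumi-1 cells was selected for poly-A tails and made into libraries with a directional kit, per the labels' protocols. HISAT2, DESeq2 and the build hg38 are named in the submitters' processing notes; the gene counter, its strand setting and all versions are not given in these sources. The authors deposited a normalized read count per gene and library, a signal that is their read count divided by a size factor. Dividing by what 1 read is worth gave whole reads, within 0.001, for 100% of values in each library; for knockout 2 and control 3, where 1 read is worth 0.993 and 0.991, this cannot be told from rounding, so the count tests there are less certain. The deposited table also gives, from the authors' comparison, a log2 fold change and a p-value with its adjusted form. Coordinates matched GENCODE release 29 for 7973 of 7983 genes.

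Genes with a mean of at least 10 were tested (7516, leaving out 467) by a two-sided limma-trend fit without a block, on log2(value + 1), in limma 3.58.1 under R 4.3.3. Fold changes are on that scale and so run small for genes with few reads. Benjamini-Hochberg adjustment assumed 19860 genes, as the ratio of the authors' adjusted to unadjusted p-values shows theirs did. Every tested gene had been selected, by its presence in the table, for a difference in these libraries (largest deposited p 0.049998). The 9 genes, the 16 other gene lists and the alternatives were chosen with earlier results of these data known. The lists were written from general knowledge; counts cover tested members only, and a gene outside the table was not analysed here. The rule named up to 4 called members per list, by size of change, with a minimum mean of 50, and genes outside this rule (MDM2, BLCAP, KIT, CD34, RUNX1T1) were named for their role. Some genes that the rule names are not reported here. Alternatives used edgeR 4.0.16 and DESeq2 1.42.0 on the recovered reads, other scalings, filters and pseudocounts, a replicate block, each library left out, and removal of trends of neighbouring genes or gene length. Replicates differed by more than counting noise (chi-square over degrees of freedom 3.83 to 11.9), so none was treated as a repeat.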

Additional observations from a re-analysis of the deposited data

How the results depend on the processing

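Each of the 9 genes kept its direction under all 19 alternatives. CDKN1A, GADD45A and BBC3 also kept their calls, with log2 fold changes from 1.90 to 2.20, -1.43 to -1.06 and -1.95 to -1.51. With the trend of neighbouring genes removed, SESN1 (log2 0.026) and ZMAT3 (-0.081) lost theirs, and the cause was not tested. When a log2 fold change of at least 1 was also required, 1 gene was higher and 2 were lower, which by construction left out TRIAP1 (0.53), SESN1 (0.32), SESN2 (-0.51), TNFRSF10B (-0.29), ZMAT3 (-0.67) and XPC (-0.36). Leaving out each library in turn gave 3 higher and 6 lower genes each time, with log2 fold changes from 2.08 to 2.20 for CDKN1A, 0.51 to 0.57 for TRIAP1, 0.28 to 0.35 for SESN1, -0.57 to -0.45 for SESN2, -1.13 to -1.06 for GADD45A, -1.84 to -1.51 for BBC3, -0.32 to -0.26 for TNFRSF10B, -0.72 to -0.64 for ZMAT3 and -0.42 to -0.29 for XPC.

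Of the other named genes, 4 turned direction with the trend of neighbouring genes removed: RRM2B (-0.23), MDM2 (-0.25, adjusted p = 0.012), DUSP5 (0.11) and FANCC (0.0271). The cause was not tested. Over all tested genes this setting left 2246 higher and 2448 lower, in place of 3557 and 3513, so calls were fewer in general. The same setting moved 13 of the list counts by over 1.5 times. Among them were the lower genes of the other arrest targets (2 in place of 4) and of the other repair targets (2 in place of 4). The lower genes of the other metabolism targets (6 in place of 10) and of nucleotide excision repair (5 in place of 9) also moved.

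Numbers did not pair the libraries: deviations from the group means of same-numbered libraries correlated at 0.02, 0.01 and -0.04. With the replicate block 3 genes were higher and 6 were lower, CDKN1A was at 2.12 and BBC3 at -1.68, and none of the 9 calls changed, while LSM3, a neighbour of XPC, passed (adjusted p = 0.0176). Depth limits the low genes most: BBC3 had 126 reads in its shallowest value. The number of libraries, 3 per group, limits the precision of small changes such as those of SESN1, TNFRSF10B and XPC.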
